A study of Mus musculus with 14 samples.

Results

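The mitochondrial respiratory chain was followed through 49 nuclear genes in mouse peritoneal macrophages: 19 of complex I (NADH dehydrogenase), 4 of complex II (succinate dehydrogenase), 8 of complex III together with its electron carrier cytochrome c, 9 of complex IV (cytochrome c oxidase) and 9 of complex V (ATP synthase). They were taken by gene name from the 20347 genes tested on the arrays, and the gene named Atp5f1 in older annotation appears here as Atp5pb. All 49 had a probe, 65 probes in all, and all 49 were well above background on each of the 14 arrays, so the filter on dim probes removed none of them. Macrophages were sorted from the peritoneal cavity of C57BL/6 mice as cells carrying both CD11b (encoded by Itgam) and the macrophage marker encoded by Adgre1. The THIO+IL-4C group (4 arrays) had received 2 ml of 4% thioglycollate broth and IL-4 complex, which is 5 µg of IL-4 bound to 25 µg of 11B11, an antibody to IL-4 that prolongs its action. The THIO group (3 arrays) had received the broth alone, the IL-4C group (4 arrays) the complex alone, and the PBS group (3 arrays) the vehicle, all by injection into the peritoneum. In the labels' own terms the THIO cells are monocytes, the THIO+IL-4C cells macrophages derived from inflammatory monocytes, the IL-4C cells proliferating tissue macrophages and the PBS cells resident macrophages. They are called elicited (with thioglycollate) and resident (without) here. The labels give neither the time of harvest nor whether replicates came from separate mice, so the spread behind each p-value may be technical.

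Complexes I and II take electrons from NADH and succinate and pass them through ubiquinone to complex III, from where cytochrome c carries them to complex IV, which reduces oxygen. Complexes I, III and IV pump protons across the inner mitochondrial membrane, and complex V lets them flow back to make ATP. Macrophages activated with IL-4 are known for high oxidative metabolism, with the coactivator encoded by Ppargc1b as one of its known regulators, whereas macrophages activated with endotoxin and interferon-gamma are known to rely more on glycolysis. Most subunits are encoded in the nucleus, and the subunits encoded in mitochondrial DNA are not analysed here, because none of the 13 had a probe with a gene name.

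The arrays differed in ways that touch every value. Levels are given on a log2 scale relative to the 75th percentile of each array's processed signal. A level of 0 is thus as bright as that percentile, a difference of 1 is a doubling, and the level of one gene cannot be compared with that of another gene. That percentile was 2036 to 2537 intensity units on the THIO+IL-4C arrays, 2286 to 3571 in THIO, 3051 to 3866 in IL-4C and 1271 to 1810 in PBS. The arrays lay on 2 slides. Slide 1 held all IL-4C and PBS arrays and THIO replicate 1, and slide 2 held all THIO+IL-4C arrays and THIO replicates 2 and 3, so that a difference between elicited and resident cells can hardly be told apart from a difference between slides. THIO replicate 1 stood apart from the other 2 THIO arrays: the lowest correlation between THIO arrays across genes was 0.85, against 0.96 as the lowest within any other group. That array correlated more closely with the resident arrays of its slide, at 0.918 to 0.931 with PBS and 0.902 to 0.916 with IL-4C. With THIO replicates 2 and 3 its correlation was 0.85 and 0.87, and with the THIO+IL-4C arrays 0.82. The median SD of the members was 0.20 in THIO, against 0.085 in THIO+IL-4C, 0.080 in IL-4C and 0.093 in PBS. Of the sorted markers, Itgam averaged 5.79 ± 0.07 in IL-4C and 5.96 ± 0.13 in PBS (SD, n = 4 and 3), with 4.24 ± 0.09 in THIO+IL-4C and 4.14 ± 0.16 in THIO. Adgre1 averaged 6.27 ± 0.06 in IL-4C and 6.55 ± 0.09 in PBS, with 3.54 ± 0.12 in THIO+IL-4C and 4.73 ± 0.05 in THIO. Other macrophage markers differed more. Lyz2, which encodes lysozyme, averaged 1.19 ± 0.45 in IL-4C and 8.47 ± 0.12 in PBS (155-fold lower in IL-4C, adjusted p = 2.77e-09 by limma), with 4.65 ± 0.25 in THIO+IL-4C and 6.69 ± 0.29 in THIO. Csf1r, the receptor for the growth factor CSF-1, averaged 6.61 ± 0.05 in IL-4C and 7.74 ± 0.12 in PBS (2.19-fold lower in IL-4C), with 6.31 ± 0.10 in THIO+IL-4C and 6.43 ± 0.30 in THIO. Of the 5 macrophage markers tested, which include Mertk, 3 were lower and none higher in IL-4C than in PBS and in THIO+IL-4C than in THIO, 4 were lower and none higher in THIO than in PBS, and 4 were lower and 1 (Lyz2) higher in THIO+IL-4C than in IL-4C. Their part in the values of the respiratory chain was not tested.

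The promoters of these genes are shown because the members, as described after them, moved together in resident cells, and because the factor NRF1 (nuclear respiratory factor, encoded by Nrf1) is known to bind the promoters of many respiratory genes. Windows of 250 bases before to 50 bases after the start were available in RefSeq (mouse build GRCm38.p6) for 39 of the 49 members. The NRF1 motif searched, CGCANGCG on either strand, was found before the start in 11 of the 39 members (28.2%), against 10.3% of 17492 protein-coding genes. The 11 were Cycs, Sdhd, Sdha, Cox6a1, Ndufa5, Ndufa8, Ndufb10, Ndufs6, Atp5c1, Atp5h and Atp5j. The 150 bases before the start, 5′ to 3′ on the strand of the gene, follow for 4 of them and for Uqcrh, which had no match, with the matches in capitals. All 5 genes lie on the minus strand. Cycs is at chr6:50566570-50566719, Sdhd at chr9:50603850-50603999, Sdha at chr13:74350241-74350390, Ndufa8 at chr2:36049339-36049488 and Uqcrh at chr4:116075071-116075220.
Cycs: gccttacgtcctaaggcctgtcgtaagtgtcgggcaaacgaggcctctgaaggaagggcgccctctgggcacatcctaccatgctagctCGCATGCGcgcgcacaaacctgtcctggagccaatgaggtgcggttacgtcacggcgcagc
Sdhd: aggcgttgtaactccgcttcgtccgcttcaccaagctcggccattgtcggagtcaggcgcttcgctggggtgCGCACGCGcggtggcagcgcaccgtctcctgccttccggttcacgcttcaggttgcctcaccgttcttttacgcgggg
Sdha: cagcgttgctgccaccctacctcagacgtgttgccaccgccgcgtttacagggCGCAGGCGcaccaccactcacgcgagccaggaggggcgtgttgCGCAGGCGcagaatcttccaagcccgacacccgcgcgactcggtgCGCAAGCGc
Ndufa8: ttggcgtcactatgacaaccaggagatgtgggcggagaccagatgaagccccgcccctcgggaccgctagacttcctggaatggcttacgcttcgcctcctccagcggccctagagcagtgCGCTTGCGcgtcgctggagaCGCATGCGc
Uqcrh: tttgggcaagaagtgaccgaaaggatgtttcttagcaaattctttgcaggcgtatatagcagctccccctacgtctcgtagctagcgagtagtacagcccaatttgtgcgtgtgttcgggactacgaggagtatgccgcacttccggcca
The Cycs match began 61 bases before the start and the Sdhd match 78 bases before it. Sdha had 3 matches, beginning 97, 54 and 9 bases before the start, and Ndufa8 had 2, at 29 and 9 bases. Uqcrh was among 28 members with a window and no match. The median change of those 28 in IL-4C relative to PBS was 0.86 on the log2 scale, against 0.72 for the 11 with a match. Other known motifs of housekeeping promoters were searched in the same way, and no motif contains another. CCGGAAG (the ETS motif bound by GABPA) was found before the start in 15.4% of the members' windows, against 10.2% of all genes. ATGGCGG (YY1) was found in 7.69% against 3.0%, and AAGGTCA (the oestrogen-related receptors, ERR) in 0 of 39 against 4.18%. GGGCGG (SP1) was found in 35.9% against 45.8%, CCAAT in 35.9% against 39.5% and TATAAA in 2.56% against 13.7%. With the 50 bases after the start included, NRF1 was found in 35.9% of the members' windows against 12.5%, and YY1 in 23.1% against 6.05%. A match is a description of these letters and not a measured binding site, and no match says only that the letters are not in this window.

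The first comparison asked what IL-4 complex does to the respiratory chain of resident macrophages. Of the 49 members, 43 were higher in IL-4C than in PBS, none was lower, and 6 did not pass the threshold (limma, adjusted p under 0.05 over all genes). At an unadjusted p under 0.05, 47 were higher and still none lower. Over all genes tested, 16.8% were called higher and 15.4% lower. The median change over the 49 members was 0.80 on the log2 scale, a 1.74-fold difference, against -0.01 over all genes. On 47 of the members every IL-4C array lay above every PBS array, against 26.3% of all genes (26.9% of all genes, and no member, the other way round), and 16 members were at least 2-fold higher. The median change was largest for complex III with cytochrome c (1.31, 7 of 8 members called), followed by complex II (0.98, 4 of 4), complex I (0.79, 17 of 19), complex V (0.73, 8 of 9) and complex IV (0.44, 7 of 9). In these bulk samples more RNA per cell and more cells of a type rich in these RNAs cannot be told apart.

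**Figure D1:**
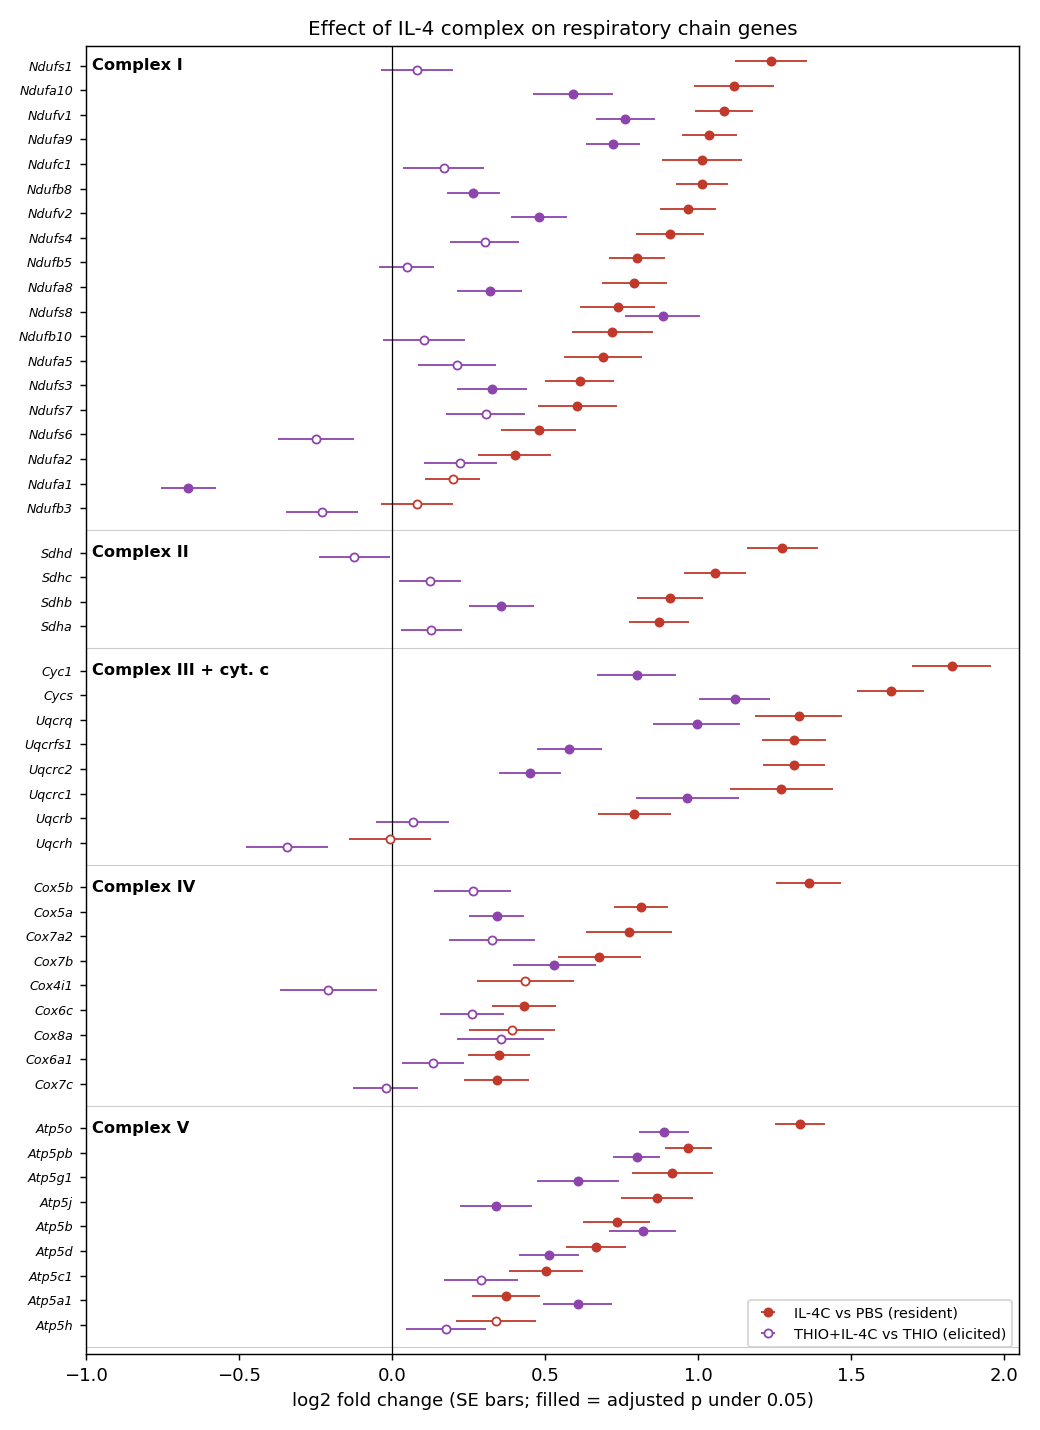
Log2 fold change of each of the 49 members for IL-4C against PBS (red) and THIO+IL-4C against THIO (purple), grouped by complex and ordered by the first, with SE bars and filled symbols where the adjusted p was under 0.05. Red symbols lie right of purple ones for 46 of the 49 genes, and Uqcrh and Ndufb3 lie near 0 in red.

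Complex I carries the flavin and the iron-sulfur clusters through which electrons enter from NADH, and all 19 of its measured genes had a positive difference in resident cells. Ndufs1, which encodes the large iron-sulfur subunit of the arm that takes up electrons, had levels of 4.21, 4.40, 4.26 and 4.41 on the IL-4C arrays and 3.01, 3.18 and 3.06 on the PBS arrays. It was the highest of the complex, with a difference of 1.24 (SE 0.12, adjusted p = 7.37e-06). Ndufv1, whose product binds the flavin and NADH, rose by 1.09 (SE 0.095) and its iron-sulfur partner Ndufv2 by 0.97 (SE 0.092). The iron-sulfur subunits nearest to ubiquinone were also called, Ndufs7 at 0.61 and Ndufs8 at 0.74. Among accessory subunits, which bear no redox group, Ndufa10 rose by 1.12, Ndufa9 by 1.04, Ndufb8 by 1.01 and Ndufc1 by 1.01. Ndufa8, one of the genes whose promoter is printed above, was at 0.79 (SE 0.11). The accessory subunit gene Ndufb3 had the smallest difference, with 4.30, 4.11, 4.28 and 4.18 on the IL-4C arrays and 3.97, 4.27 and 4.17 on the PBS arrays. These overlap, and the difference was 0.08 (95% interval -0.17 to 0.34, adjusted p = 0.69), with 0.41 and a call on the authors' normalized values (adjusted p = 0.029). Ndufa1, an accessory subunit known to be needed for assembly of the complex, did not pass either (0.20, SE 0.09, adjusted p = 0.12), although its IL-4C arrays lay above its PBS arrays and it was called on the authors' normalized values (0.57).

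All 4 genes of complex II were higher. Sdhd, one of the pair of membrane anchors, had 5.78, 5.63, 5.73 and 5.72 on the IL-4C arrays and 4.35, 4.47 and 4.49 on the PBS arrays, a difference of 1.28 (SE 0.12, adjusted p = 5.21e-06). The other anchor, Sdhc, rose by 1.06 (SE 0.10), from 3.82, 3.78, 3.77 and 3.99 in IL-4C and 2.66, 2.99 and 2.70 in PBS, and the iron-sulfur subunit Sdhb by 0.91 (SE 0.11). Sdha, the flavoprotein that oxidises succinate, had the smallest difference of the 4, 0.87 (SE 0.099), with 4.53, 4.57, 4.53 and 4.48 in IL-4C and 3.63, 3.75 and 3.59 in PBS. No IL-4C array overlapped a PBS array for any of these genes. Sdhd and Sdha are among the genes with an NRF1 match before the start, and Sdhc had no promoter window.

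Complex III and cytochrome c held the largest differences. Cyc1, which encodes cytochrome c1, had levels of 5.06, 4.96, 5.05 and 4.96 in IL-4C and 3.32, 3.13 and 3.08 in PBS, and was 3.55-fold higher (log2 difference 1.83, SE 0.13, adjusted p = 6.99e-07). Cycs, which encodes cytochrome c itself, had 5.16, 4.86, 5.21 and 5.04 in IL-4C and 3.35, 3.42 and 3.53 in PBS, a difference of 1.63 (SE 0.11). Cycs has 3 probes. The next brightest differed by 1.29 in the same direction, whereas the last, a dim probe with a mean level of -4.32, differed by -1.60, and on the mean of the 3 probes the difference was 0.44 and did not pass (adjusted p = 0.58). The Rieske iron-sulfur protein gene Uqcrfs1 and the core subunit gene Uqcrc2 rose by 1.31 and 1.31, the core subunit gene Uqcrc1 by 1.27, and the small subunit genes Uqcrq and Uqcrb by 1.33 and 0.79. Uqcrh, the hinge protein that bridges cytochrome c1 and cytochrome c, stood outside this pattern. It had 5.69, 5.55, 5.67 and 5.62 in IL-4C and 5.56, 5.76 and 5.59 in PBS, which overlap, and a difference of -0.01 (95% interval -0.30 to 0.29, adjusted p = 0.98). Its other probe gave 0.06, and under the other scalings it ranged up to 0.34 (the authors' normalized values, adjusted p = 0.097) without a call.

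In complex IV, Cox5b, an accessory subunit whose product binds zinc, had 5.88, 5.56, 5.76 and 5.81 in IL-4C and 4.31, 4.46 and 4.40 in PBS, a difference of 1.36 (SE 0.11, adjusted p = 6.57e-06). The other members of complex IV differed less. Cox5a was at 0.81, Cox7a2 at 0.77, Cox7b at 0.68, Cox6c at 0.43 and Cox6a1 at 0.35, and all 5 were called. Cox7c had the smallest difference, 0.34 (SE 0.11, adjusted p = 0.027), with 4.72, 4.57, 4.67 and 4.62 in IL-4C and 4.15, 4.42 and 4.33 in PBS. One of its other probes gave 0.50 and the dimmest one -0.06, and the call was lost without PBS replicate 1 (0.27, adjusted p = 0.13) and without PBS replicate 3 or IL-4C replicate 1, 3 or 4. Cox4i1 (0.44, SE 0.16) and Cox8a (0.39, SE 0.14) missed the threshold, each at an adjusted p of 0.053, with their groups not overlapping.

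In complex V, the peripheral stalk gene Atp5o, whose product attaches the catalytic head to the stalk, had 5.30, 5.18, 5.20 and 5.20 in IL-4C and 3.82, 3.94 and 3.90 in PBS, a difference of 1.33 (SE 0.081, adjusted p = 2.56e-07). Atp5pb, subunit b of the same stalk, rose by 0.97 and Atp5j, its coupling factor, by 0.87. Atp5g1, one of the genes for the rotating ring, rose by 0.92. Atp5b, the catalytic beta subunit, had 6.92, 6.70, 6.92 and 6.90 in IL-4C and 6.18, 6.18 and 6.02 in PBS, a difference of 0.73 (SE 0.11), while its partner Atp5a1, the alpha subunit, was at 0.37 (adjusted p = 0.023). The Atp5a1 call was lost without PBS replicate 1 or 3 or IL-4C replicate 3 or 4 (adjusted p up to 0.094). The gamma and delta subunits of the head, Atp5c1 and Atp5d, rose by 0.50 and 0.67. Atp5h, subunit d of the stalk, had the smallest difference of the complex, with 6.26, 6.09, 6.19 and 6.22 in IL-4C and 5.85, 5.89 and 5.81 in PBS. These do not overlap, but the difference of 0.34 (SE 0.13) did not pass (adjusted p = 0.070).

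**Figure D2:**
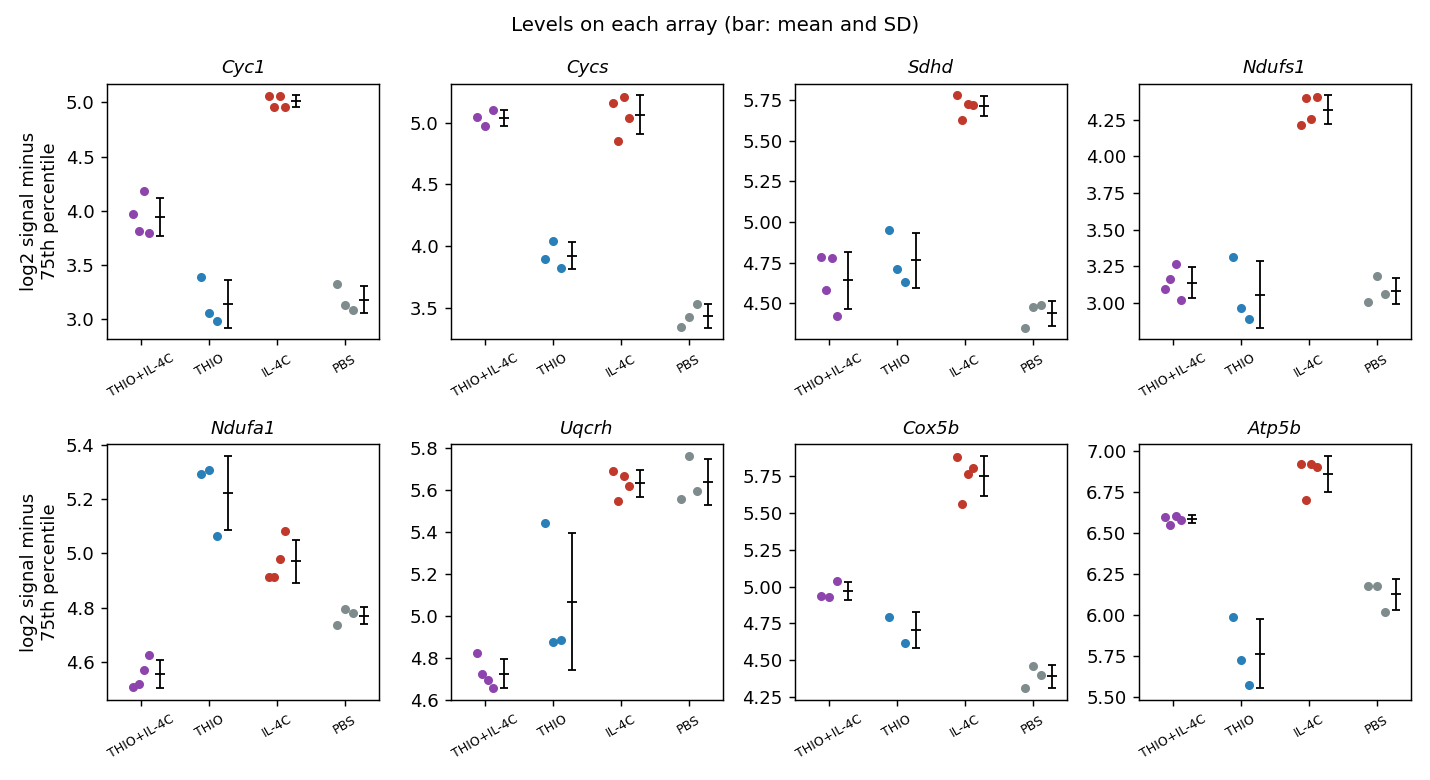
Level of 8 members on each array (log2 signal minus the 75th percentile of the array; points are arrays, bars the mean and SD), with axes that do not start at 0. Cyc1, Cycs, Sdhd, Ndufs1, Cox5b and Atp5b lie higher in IL-4C than in PBS on every array, Uqcrh overlaps, and Ndufa1 is lower in THIO+IL-4C than in THIO.

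Genes of dividing cells and of other cell types were also called, in a comparison where 16.8% of all genes were higher and 15.4% lower. All 8 proliferation genes were higher in IL-4C than in PBS, with a median of 3.35, and their summed signal was 119 to 144 times the 75th percentile on the IL-4C arrays and 18.1 to 22.5 times on the PBS arrays. Bright probes weigh most in such a sum, so it does not give the change of a typical gene. Of 10 B cell markers, 6 were lower in IL-4C and none higher, with a summed signal of 3.65 to 4.12 in IL-4C and 11.3 to 20.3 in PBS. Of 4 mast cell markers, 3 were lower, with 0.762 to 0.998 in IL-4C and 3.02 to 4.12 in PBS. Of 11 T and NK cell markers 4 were lower and none higher (11.5 to 20.5 in IL-4C and 13.1 to 15.5 in PBS), and of 7 neutrophil markers 2 were lower and none higher (34.8 to 39.9 in IL-4C and 53.0 to 67.9 in PBS). Of 5 eosinophil markers 1 was higher (1.91 to 2.16 in IL-4C and 2.03 to 2.31 in PBS), and of 8 mesothelial and stromal markers 3 were lower (0.744 to 0.860 in IL-4C and 1.31 to 1.46 in PBS). The markers well above background on no array of a group were Cd3g and Wt1 in IL-4C, and Epx, Wt1 and Col1a1 in PBS. The part of these cells and of proliferation in the respiratory chain result was not tested, nor was that of array brightness, which was higher on every IL-4C array than on any PBS array.

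In elicited cells, where the question was whether macrophages recruited by thioglycollate respond in the same way, 24 members were higher in THIO+IL-4C than in THIO, 1 was lower and 24 did not pass. Over all genes 16.3% were called higher and 23.0% lower. The median over the members was 0.32, a 1.25-fold difference, against 0.04 over all genes. Arrays did not overlap with THIO+IL-4C above THIO for 24 members and below it for 2 (Ndufa1 and Uqcrh), against 21.9% and 22.6% of all genes, and only Cycs was at least 2-fold higher. The medians were 0.69 for complex III with cytochrome c (6 of 8 members higher), 0.61 for complex V (7 of 9), 0.27 for complex I (8 of 19 higher, 1 lower), 0.26 for complex IV (2 of 9) and 0.13 for complex II (1 of 4). Without THIO replicate 1, which leaves both groups on slide 2, 32 members were higher and 1 was lower, whereas on the authors' normalized values 16 were higher and 3 lower. The shares of all genes above belong to the fit of all arrays. When 1 array was left out, 6940 to 8972 of 20347 genes were called in all. Of the 25 calls, 20 remained whichever array was left out and 15 under all 12 other settings. Those lost in at least 1 of the other settings were Atp5j, Cox5a, Cox7b, Cycs, Ndufa10, Ndufa8, Ndufb8, Ndufs3, Sdhb and Uqcrc2.

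Cycs had 5.05, 4.97 and 5.10 on the 3 THIO+IL-4C arrays with a usable spot and 3.90, 4.04 and 3.83 on the THIO arrays, a difference of 1.12 (SE 0.12, adjusted p = 2.22e-05). The fit dropped the spot of THIO+IL-4C replicate 2. The other probes of Cycs gave 0.96 and, for the dim one, 0.46, and on the mean of the 3 probes the difference was 0.41 and the call was lost (adjusted p = 0.51). Cyc1 had 3.97, 3.82, 4.18 and 3.80 in THIO+IL-4C and 3.39, 3.05 and 2.98 in THIO, a difference of 0.80 (SE 0.13). Uqcrq rose by 1.0 (SE 0.14) and Uqcrc1 by 0.97 (SE 0.17). Uqcrh was the lowest of complex III, at 4.82, 4.72, 4.69 and 4.66 in THIO+IL-4C and 5.44, 4.87 and 4.88 in THIO. No array of THIO+IL-4C reached the THIO arrays, but the difference of -0.34 (SE 0.13) did not pass (adjusted p = 0.063). It was called lower after quantile normalization (-0.48), and on its other probe the difference was -0.04.

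In complex I the highest was Ndufs8, with 2.39, 2.39, 2.55 and 2.33 in THIO+IL-4C and 1.76, 1.54 and 1.30 in THIO, a difference of 0.88 (SE 0.12, adjusted p = 0.000114). Ndufv1 rose by 0.76 and Ndufa9 by 0.72. Ndufs1, the member of the complex that differed most in resident cells, was at 3.10, 3.17, 3.27 and 3.02 in THIO+IL-4C and 3.31, 2.96 and 2.89 in THIO, a difference of 0.08 (SE 0.12, adjusted p = 0.58). Ndufa1 was the only member called lower, and it was called lower under each of the 4 other scalings too. It had 4.51, 4.52, 4.57 and 4.63 in THIO+IL-4C and 5.29, 5.31 and 5.06 in THIO, with no overlap, a difference of -0.66 (SE 0.09, adjusted p = 9.54e-05). Ndufa5 was at 0.21 on the probe used and at -0.01 on its other probe, neither of them a call.

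Complex II, higher throughout in resident cells, had 1 call in elicited cells. Sdhb was at 4.82, 4.61, 4.76 and 4.74 in THIO+IL-4C and 4.61, 4.30 and 4.21 in THIO, a difference of 0.36 (SE 0.11, adjusted p = 0.019). Its groups overlapped at 4.61, and the call was lost without THIO replicate 2 (0.32, adjusted p = 0.055) and without THIO replicate 3 (0.28, adjusted p = 0.074). Its other probe gave a larger difference of 0.72, and 0.92 in IL-4C relative to PBS. Sdhd had 4.78, 4.58, 4.78 and 4.42 in THIO+IL-4C and 4.95, 4.71 and 4.63 in THIO, overlapping, with a difference of -0.12 (SE 0.12, adjusted p = 0.40). Sdhc had 2.99, 3.13, 3.13 and 3.03 in THIO+IL-4C and 2.95, 2.99 and 2.90 in THIO. It was at 0.12 on the probe used and at -0.10 on its other probe, and was not called.

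In complex IV, Cox7b was the highest, with 4.92, 5.07, 4.83 and 5.12 in THIO+IL-4C and 4.77, 4.43 and 4.17 in THIO, a difference of 0.53 (SE 0.14, adjusted p = 0.0084), and Cox5a rose by 0.34. Neither call of the complex held throughout: both were lost with median centring (adjusted p = 0.11 for Cox7b and 0.22 for Cox5a), on the authors' normalized values (0.092 and 0.12 in the same order) and with only the groups compared (0.078 and 0.090), and Cox5a also after quantile normalization (0.34). Cox4i1 was the lowest, with 5.78, 5.61, 5.74 and 5.52 in THIO+IL-4C and 6.34, 5.67 and 5.60 in THIO. THIO replicate 1 lay above the other THIO arrays and every THIO+IL-4C array, and the difference was -0.21 (SE 0.16, adjusted p = 0.30). Cox5b, which lacked a usable spot on THIO replicate 1 and THIO+IL-4C replicate 4, was at 0.26 (SE 0.13, adjusted p = 0.13), from 4.93, 4.93 and 5.04 in THIO+IL-4C and 4.79 and 4.62 in THIO. Cox7c was at -0.02 on the probe used and at -0.14 and -1.20 on its other probes. In complex V, Atp5o had 4.68, 4.61, 4.66 and 4.63 in THIO+IL-4C and 3.83, 3.78 and 3.65 in THIO, a difference of 0.89 (SE 0.081, adjusted p = 4.26e-06). Atp5b rose by 0.82, Atp5pb by 0.80, Atp5g1 by 0.61 and Atp5a1 by 0.61. Atp5h had the smallest difference of the complex, with 5.65, 5.64, 5.58 and 5.55 in THIO+IL-4C and 5.77, 5.40 and 5.11 in THIO, a difference of 0.18 (SE 0.13, adjusted p = 0.29). Its groups overlapped, as did those of Atp5c1 (0.29) and of Atp5j (0.34), the last of which was called.

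Beside these changes, 7 of the 8 proliferation genes were higher in THIO+IL-4C than in THIO, with a summed signal of 43.3 to 56.8 times the 75th percentile in THIO+IL-4C and 27.2 to 32.0 times in THIO. Those 7 rose by 2.015 to 3.46 on the log2 scale, more than the sum, and Pcna was at -0.08 and not called. Over all genes 16.3% were called higher and 23.0% lower. Of the 10 B cell markers 4 were lower and none higher, with a summed signal of 2.63 to 2.74 in THIO+IL-4C and 5.55 to 6.41 in THIO. Of 11 T and NK cell markers 1 was higher and 2 were lower (17.3 to 23.8 in THIO+IL-4C and 12.2 to 14.4 in THIO), of 7 neutrophil markers 1 was higher (50.2 to 57.7 in THIO+IL-4C and 47.0 to 51.0 in THIO), and of 8 mesothelial and stromal markers 3 were lower (2.16 to 2.41 in THIO+IL-4C and 2.81 to 4.10 in THIO). Of 5 eosinophil markers 1 was higher and 1 lower (2.18 to 3.62 in THIO+IL-4C and 1.48 to 2.45 in THIO), and of 4 mast cell markers 1 was lower (0.629 to 0.919 in THIO+IL-4C and 0.802 to 1.48 in THIO). Wt1 was well above background on no THIO+IL-4C array. Their part in the differences was not tested.

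The difference between both responses was tested as an interaction, the effect of IL-4 complex in elicited cells minus its effect in resident cells. It was negative for 46 of the 49 members and called lower for 25, with none called higher (30 and 0 by limma at an unadjusted p under 0.05), against 19.8% of all genes lower and 12.8% higher. The median was -0.47 over the members and -0.05 over all genes. Calls came to 11 of 19 in complex I (median -0.49), 4 of 4 in complex II (-0.84), 5 of 8 in complex III with cytochrome c (-0.62), 3 of 9 in complex IV (-0.36) and 2 of 9 in complex V (-0.17). Sdhd had the largest interaction, -1.40 (SE 0.16, adjusted p = 6.08e-05), from a difference of -0.12 in elicited and 1.28 in resident cells. Ndufs1 followed with -1.16 (SE 0.17, adjusted p = 0.000266), from 0.08 in elicited and 1.24 in resident cells. Cox5b had -1.10 (SE 0.16), Cyc1 -1.03 (SE 0.18) and Sdhc -0.93 (SE 0.14). Among the other probes of complex II, that of Sdhb gave 0.72 in elicited and 0.92 in resident cells, and that of Sdhc -0.10 and 1.71. The response was larger in elicited cells for 3 members, none of them called, Atp5a1 (0.23, SE 0.16), Ndufs8 (0.15, SE 0.17) and Atp5b (0.08, SE 0.15). Without THIO replicate 1, 24 members were called lower and none higher. Of the 25 calls, 19 remained whichever array was left out and 18 under all 10 other settings. Across the comparisons, which share no array, 24 members were called higher in both, 19 in resident cells alone, none higher in elicited cells alone, and 5 in neither, and Ndufa1 was called lower in elicited cells alone. The difference was positive in both for 42. Of all genes, 16.8% were called higher in resident and 16.3% in elicited cells, but how many were shared was not counted over all genes. These overlaps therefore do not show a pattern particular to the members.

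**Figure D3:**
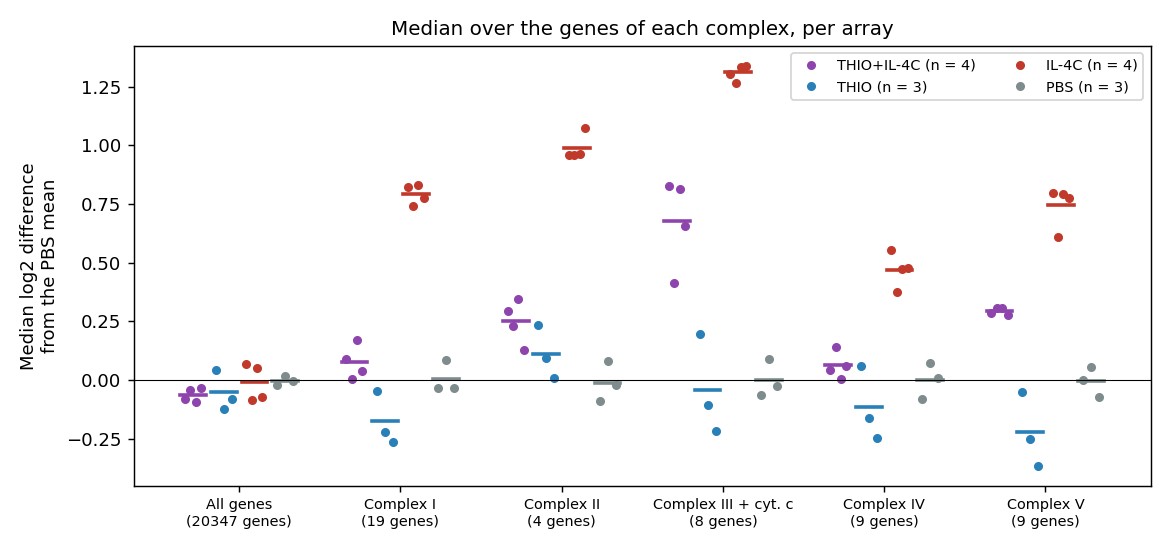
Median over the genes of each complex, and over all genes, of the log2 difference of each array from the mean of the PBS arrays, with a point per array and a bar at the group mean. The 4 IL-4C arrays lie highest in every complex, and THIO replicate 1 is the highest THIO point in each complex.

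Thioglycollate alone, which sets recruited against resident cells, left most members without a call. Of the 49, 2 were higher in THIO than in PBS, 9 were lower and 38 did not pass (14 higher and 6 lower after quantile normalization), against 20.1% of all genes higher and 24.3% lower. The median over the members was -0.12, against -0.09 over all genes, and no member differed as much as 2-fold. THIO arrays lay above PBS arrays without overlap for 8 members and below them for 10, against 19.1% and 23.5% of all genes. This comparison rests on THIO replicate 1 and on slide: 4 members were higher and 22 lower without that array, whereas with it as the only THIO array, on the slide of the PBS arrays, 6 were higher and 1 was lower. In that last fit the lone array is assumed to vary like the others. The number of all genes called moved as well, from 6227 to 13876 of 20347 when 1 array was left out. The member counts alone thus do not show a change particular to the respiratory chain. The medians were -0.19 for complex I, 0.11 for complex II, -0.04 for complex III with cytochrome c, -0.09 for complex IV and -0.24 for complex V.

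Atp5a1 was the lowest, with 5.07, 4.95 and 4.71 in THIO and 5.45, 5.73 and 5.46 in PBS, a difference of -0.64 (SE 0.12, adjusted p = 0.0013) without overlap. Ndufa5, an accessory subunit, had 3.78, 3.62 and 3.32 in THIO and 4.03, 4.28 and 4.27 in PBS, a difference of -0.62 (SE 0.14, adjusted p = 0.0037), and -0.29 on its other probe. Within slide 1 it was -0.41 and did not pass (adjusted p = 0.076). Uqcrh was at -0.57 (SE 0.14, adjusted p = 0.0082) over all arrays and at -0.19 within slide 1 (adjusted p = 0.28). Its level was 5.44 on THIO replicate 1, 4.87 and 4.88 on the other THIO arrays, and 5.56 to 5.76 on the PBS arrays. Cox8a had 6.22, 5.69 and 5.57 in THIO and 6.20, 6.33 and 6.32 in PBS, which overlap. It was called at -0.45 (SE 0.15) and lost its call without PBS replicate 2 or 3 or THIO replicate 2 or 3, and within slide 1 (-0.06, adjusted p = 0.78), and it was positive after quantile normalization (0.18). The other members called lower were Ndufs7 (-0.55), Atp5h (-0.42), Ndufb3 (-0.40), Ndufs8 (-0.40) and Atp5b (-0.36), none of which passed within slide 1. After quantile normalization Atp5h (0.11) and Atp5b (0.24) were positive.

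Ndufa1 and Cycs went against their complexes. Ndufa1 had 5.29, 5.31 and 5.06 in THIO and 4.74, 4.80 and 4.78 in PBS, a difference of 0.45 (SE 0.096, adjusted p = 0.0030), with each THIO array above each PBS array. Cycs had 3.90, 4.04 and 3.83 in THIO and 3.35, 3.42 and 3.53 in PBS, a difference of 0.49 (SE 0.12, adjusted p = 0.0074). Its next brightest probe gave 0.05 and its dim probe -0.74, so that the direction rests on the brightest probe, and within slide 1 its adjusted p was 0.052. Other members with the highest difference of their complex were Sdhd at 0.33 (adjusted p = 0.0505), Cox5b at 0.32 and Atp5pb at 0.19, which were not called. Atp5pb had 3.73, 3.81 and 3.69 in THIO and 3.56, 3.62 and 3.48 in PBS, without overlap. Sdha was the lowest of complex II, with 3.82, 3.60 and 3.51 in THIO, overlapping the PBS values given above (-0.01, SE 0.11).

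Markers of other cells were called as well between THIO and PBS, where 20.1% of all genes were higher and 24.3% lower. Of 8 mesothelial and stromal markers 5 were higher and none lower, of 10 B cell markers 1 was higher and 7 lower, and of 11 T and NK cell markers 5 were lower. Of 7 neutrophil markers 3 were higher and 2 lower, of 5 eosinophil markers 2 were higher and 2 lower, of 4 mast cell markers 3 were lower, and of 8 proliferation genes 1 was higher and 5 lower. Their summed signals are given with the comparisons above, and their part in the respiratory chain values was not tested.

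Under IL-4 complex, elicited cells had lower levels of the respiratory chain than resident cells. Of the 49 members, 45 were lower in THIO+IL-4C than in IL-4C and none was higher (46 and 0 by limma at an unadjusted p under 0.05), against 42.1% of all genes lower and 27.9% higher. No THIO+IL-4C array reached the IL-4C arrays for 45 members (42.7% of all genes, with 29.9% the other way round). The median over the members was -0.56, against -0.21 over all genes. All 4 THIO+IL-4C arrays were on slide 2 and all 4 IL-4C arrays on slide 1. With slide as a block, a fit in which THIO replicate 1 alone links the slides, 13 members were lower and 1 was higher. Fewer genes of any kind were called in that fit, as given below with the processing. Of the 45 calls, 42 remained whichever array was left out, but only 13 under all 11 other settings. Ndufs1 was the lowest, with 3.10, 3.17, 3.27 and 3.02 in THIO+IL-4C and 4.21, 4.40, 4.26 and 4.41 in IL-4C, a difference of -1.18 (SE 0.11). Ndufa5 (-1.10), Sdhd (-1.07) and Cyc1 (-1.07) were also lower by at least 2-fold. The 4 members not called were Cycs (-0.02, SE 0.11), Uqcrq (-0.03, SE 0.13), Atp5pb (0.02, SE 0.071) and Ndufs8 (-0.25, SE 0.11, adjusted p = 0.065). Atp5pb was below 0 under median centring (-0.31) and on the authors' normalized values (-0.33).

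Markers of other cells were called in the same comparison, in which 27.9% of all genes were called higher and 42.1% lower. Of 7 neutrophil markers 4 were higher in THIO+IL-4C than in IL-4C and 1 was lower, with a summed signal of 50.2 to 57.7 in THIO+IL-4C and 34.8 to 39.9 in IL-4C. S100a9, a calcium-binding protein of neutrophils and monocytes, was 50.2-fold higher (5.65, SE 0.67), its partner S100a8 20.6-fold, and the granule genes Mpo and Elane 4.44-fold and 2.97-fold. In the same list Camp was 2.55-fold lower, and Ngp (-1.15) and Csf3r (0.18) were not called. Of 5 eosinophil markers 3 were higher and 1 lower (2.18 to 3.62 in THIO+IL-4C and 1.91 to 2.16 in IL-4C), led by Epx (5.94-fold, with 2 IL-4C arrays not well above background) and Siglecf (5.04-fold). The lower one was Prg2 (3.53-fold). Of 4 mast cell markers Kit was higher (8.61-fold) and Mcpt4 lower (0.629 to 0.919 in THIO+IL-4C and 0.762 to 0.998 in IL-4C). Of 10 B cell markers 4 were higher and 6 lower (2.63 to 2.74 in THIO+IL-4C and 3.65 to 4.12 in IL-4C), of 11 T and NK cell markers 3 were higher and 2 lower (17.3 to 23.8 in THIO+IL-4C and 11.5 to 20.5 in IL-4C), and of 8 mesothelial and stromal markers 3 were higher and 1 lower (2.16 to 2.41 in THIO+IL-4C and 0.744 to 0.860 in IL-4C). All 8 proliferation genes were lower, with a summed signal of 43.3 to 56.8 in THIO+IL-4C and 119 to 144 in IL-4C. The part of these cells in the lower levels of the respiratory chain was not tested.

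The rest of the machinery was read from lists of genes. Over all genes 16.8% were called higher and 15.4% lower in IL-4C than in PBS. In THIO+IL-4C relative to THIO the shares were 16.3% and 23.0%. Of 30 other nuclear subunits of the same complexes, 24 were higher and 2 lower in IL-4C than in PBS (median 0.65), and 9 were higher and 4 lower in THIO+IL-4C than in THIO. Ndufab1, the mitochondrial acyl carrier protein that is also a subunit of complex I, had 1.06, 1.06, 1.32 and 1.04 in IL-4C and -1.49, -1.28 and -1.39 in PBS, a 5.67-fold difference (2.50, SE 0.12). The complex I subunit gene Ndufa12 rose by 1.41. Those that fell were Ndufa4, now counted as a subunit of complex IV, and Cox7a2l, which is known to join complexes III and IV into supercomplexes. Ndufa4 had 2.36, 2.06, 2.48 and 2.08 in IL-4C and 3.72, 4.01 and 3.80 in PBS, a difference of -1.60 (SE 0.12, adjusted p = 1.33e-06), and fell by 0.70 in THIO+IL-4C relative to THIO (SE 0.12). Cox7a2l was at -1.01 (SE 0.12) in IL-4C relative to PBS and at -0.62 (SE 0.12) in THIO+IL-4C relative to THIO.

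Of 44 assembly factors, which insert cofactors and join subunits, 29 were higher and 4 lower in IL-4C than in PBS (median 0.52), and 14 were higher and 12 lower in THIO+IL-4C than in THIO. The share of them lower in THIO+IL-4C was near that of all genes (23.0%). The highest in resident cells were Coa7, an assembly factor of complex IV (1.55), and Tmem70, of complex V (1.43). The lowest was Timmdc1, of complex I (-0.97). In elicited cells Cox10, which makes a heme of complex IV, rose by 1.46. Of 38 genes of the mitochondrial ribosome, which translates the subunits encoded in mitochondrial DNA, 32 were higher and none lower in IL-4C than in PBS (median 0.73), and 20 were higher and 2 lower in THIO+IL-4C than in THIO. Mrps28 was the highest in both, at 1.52 in resident and 1.56 in elicited cells among the genes called. Of 25 genes of protein import, 21 were higher and 1 lower in resident cells (median 0.64), led by Timm8a1 (1.93) and the import motor chaperone Hspa9 (1.76), and 15 were higher and 1 lower in elicited cells (median 0.57). Without THIO replicate 1 the elicited counts were 14 higher and 3 lower for the other subunits, 17 and 10 for assembly factors, 21 and 2 for the ribosome and 16 and 0 for import. Between THIO and PBS, counts were 4 higher and 4 lower for the other subunits, 12 and 7 for assembly factors, 5 and 7 for the ribosome and 6 and 5 for import. Over all genes 20.1% were called higher and 24.3% lower in that comparison, shares that among these lists only the higher counts of assembly factors and import exceed. Isoforms of muscle, testis and other tissues (9 genes) had 2 higher and none lower in IL-4C than in PBS, with Cox7a1, the muscle and brown fat isoform of a complex IV subunit, at 1.91 (SE 0.14). Of 8 genes of uncoupling and of defence against reactive oxygen, 5 were higher and 3 lower in IL-4C than in PBS, and 3 were higher and 2 lower in THIO+IL-4C than in THIO. The counts of 2 in these short lists lie near the shares of all genes.

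**Figure D4:**
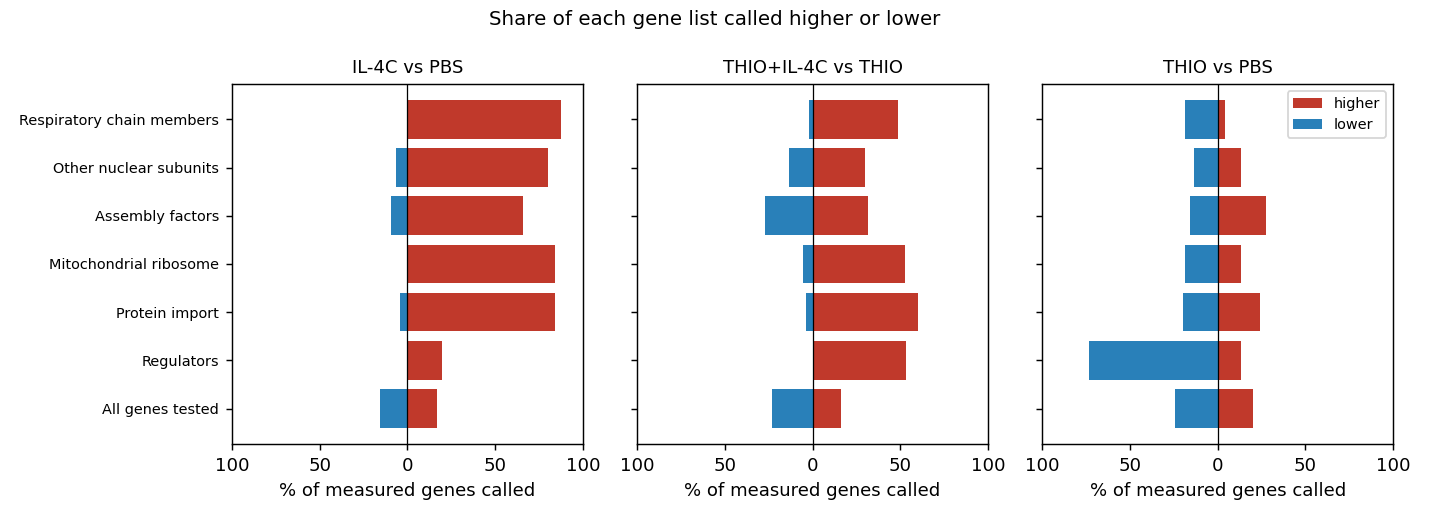
Share of the measured genes of each list that was called higher (red, to the right) or lower (blue, to the left) at an adjusted p under 0.05, for IL-4C against PBS, THIO+IL-4C against THIO and THIO against PBS, with all 20347 genes in the last row. The shares of subunits, ribosome and import genes called higher exceed that of all genes in the first 2 panels.

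Of 15 regulators of mitochondrial genes, 3 were higher and none lower in IL-4C than in PBS (7 and 1 on the authors' normalized values), against 16.8% of all genes higher and 15.4% lower. Ppargc1b, the coactivator named above, had 0.48, 0.57, 0.55 and 0.61 in IL-4C and -2.60, -2.52 and -2.35 in PBS, an 8.25-fold difference (3.04, SE 0.18, adjusted p = 2.34e-07). In elicited cells it had -0.42, -0.55, -0.44 and -1.26 in THIO+IL-4C and -3.22, -3.02 and -3.27 in THIO, a difference of 2.50 (SE 0.18), and the interaction of -0.54 (SE 0.26) did not pass (adjusted p = 0.13). Esrra, the oestrogen-related receptor with which that coactivator is known to act, had 3.71, 3.46, 3.48 and 3.58 in IL-4C and 2.50, 2.73 and 2.69 in PBS, a difference of 0.92 (SE 0.11). It had 2.78, 2.77, 2.78 and 2.63 in THIO+IL-4C and 3.04, 2.87 and 2.73 in THIO, a difference of -0.14 (SE 0.11, adjusted p = 0.30), and its interaction of -1.06 (SE 0.15) was called (adjusted p = 0.000255). Tfb1m, which methylates mitochondrial ribosomal RNA, rose by 1.53 (SE 0.13) in resident cells, with the fit dropping IL-4C replicate 4, and differed by 0.12 (adjusted p = 0.44) in elicited cells.

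Nrf1, whose motif was searched above, was at -0.13 (SE 0.24, adjusted p = 0.76) in IL-4C relative to PBS and at -0.11 (SE 0.24) in THIO+IL-4C relative to THIO. The members with an NRF1 match had a median change of 0.72 in IL-4C relative to PBS (11 members, 10 called higher) and those without one 0.86 (28 members, 24 called higher). Gabpa, which encodes the ETS factor, was at 0.31 (adjusted p = 0.057) in resident cells and rose by 0.42 in elicited cells. Tfam, which packages and transcribes mitochondrial DNA, was at 0.10 (adjusted p = 0.59) in resident cells and rose by 0.72 (SE 0.12) in elicited cells. The coactivator gene Pprc1 was at -0.17 (adjusted p = 0.54) in resident cells and rose by 0.68 (SE 0.17) in elicited cells. Altogether 8 of the 15 regulators were higher and none lower in THIO+IL-4C than in THIO (4 and 1 on the authors' normalized values), against 16.3% and 23.0% of all genes. In THIO relative to PBS 2 were higher and 11 lower, against 20.1% and 24.3%. In THIO+IL-4C relative to IL-4C 2 were higher and 6 lower, against 27.9% and 42.1%, a share lower that is near that of all genes. Ppargc1a, the relative of Ppargc1b known from muscle and brown fat, was at 0.14 (SE 0.47, adjusted p = 0.88) in IL-4C relative to PBS. It was higher in THIO than in PBS by 4.08 (SE 0.50), with a PBS level that was well above background on 2 of 3 arrays.

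**Figure D5:**
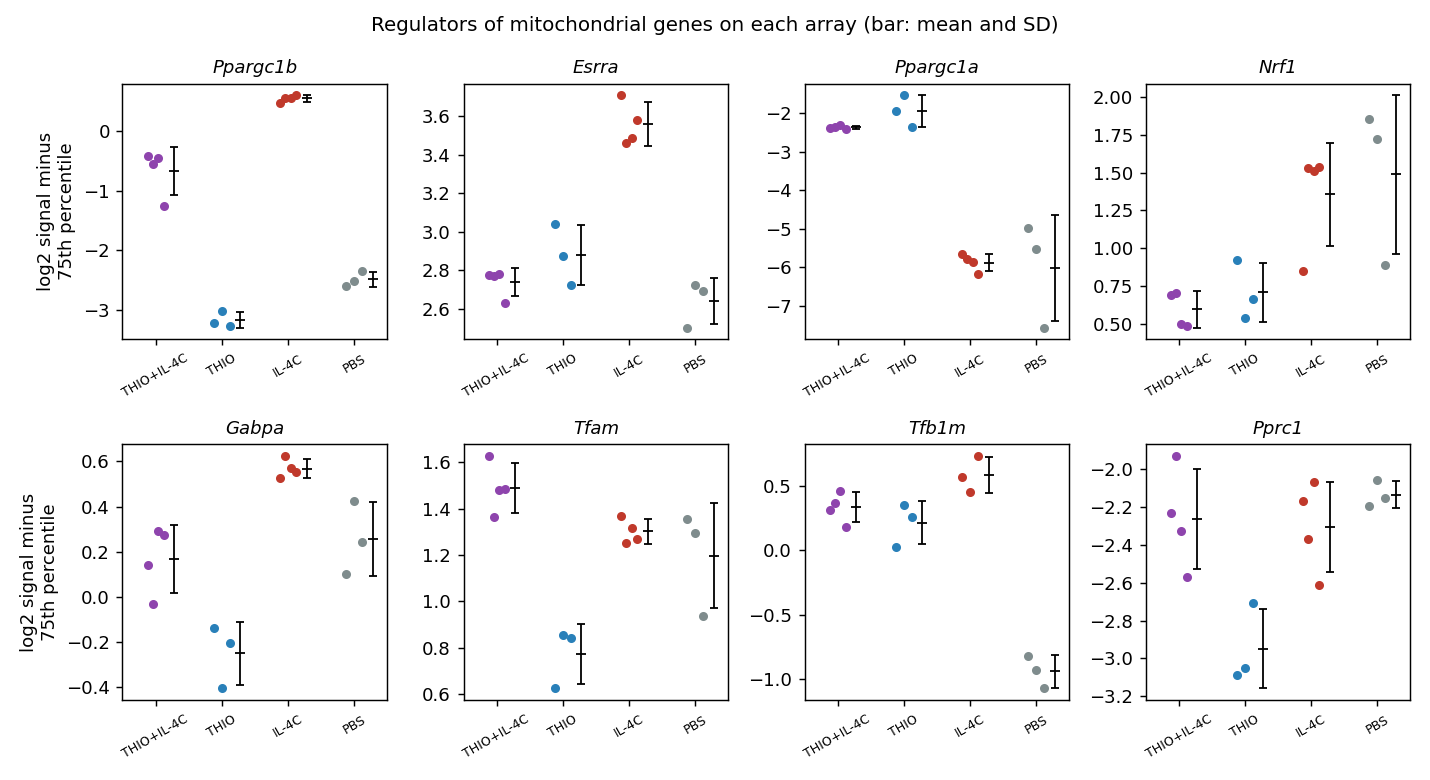
Level of 8 regulators on each array (log2 signal minus the 75th percentile of the array; points are arrays, bars the mean and SD), with axes that do not start at 0. Ppargc1b lies higher with IL-4 complex on every array, in THIO+IL-4C relative to THIO and in IL-4C relative to PBS, and each IL-4C array of Esrra lies above each PBS array.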

How the data were processed

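RNA of 14 samples was hybridised to 1-colour Agilent arrays. The deposited scanner files hold the processed signal intensity of each spot, background-corrected by Feature Extraction, per the file headers; the submitters' processing notes name Agilent Feature Extraction 11.5 and limma. The authors' normalized table is on a log2 scale and was used only as an alternative. Its columns all have a median of 9.23 and correlate with the scanner values at 0.989 to 0.995, and the sources used here do not state its normalization.

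From the 62976 spots, 3671 control spots and 113 to 165 outlier spots per array were left out. Signals were taken to log2 minus the 75th percentile of the array, and spots of a probe were averaged. Probes had to be well above background on at least 3 arrays, which 79.4% to 95.8% of probes were per array, and the brightest probe stood for a gene. Names came from RefSeq (GRCm38.p6) through accessions: 27235 of 55681 probes had 1 symbol and 28446 had none. The number of arrays limits the precision.

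One mean per group was fitted to all 14 arrays with limma 3.58.1 in R 4.3.3, with 5 contrasts (empirical Bayes moderated test, Benjamini-Hochberg adjustment over 20347 genes, threshold 0.05), after the procedure was tested on simulated data. In that simulation of IL-4C against PBS, 45% of changes of log2 size 1 and 65% of those of size 2 were recovered. Of its 117 calls, 7 were false. A gene that was not called may thus have changed. Samples were grouped by their treatment labels. The same numbers in different groups do not pair samples: the correlations of same-numbered samples' deviations ran from -0.363 to 0.199, and the labels tie no number to an animal or a day. Alternatives covered the scaling, background, filter, probe rule, slide, replicate block, array weights, groups fitted and each array left out.

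The members and lists were chosen with earlier results of these data known. Per-array values are given for the highest and lowest member of each complex in 3 comparisons, members called against the median of their complex, the 5 largest interactions and Cycs. For each list, at most the 2 highest and 2 lowest called genes are named, plus 7 regulators; other genes were named for their role, after their values were seen. Promoter letters were searched on both strands with python 3.11.15.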

Additional observations from a re-analysis of the deposited data

Results flagged for a closer look

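The effect of IL-4 complex differed between elicited and resident cells, by the interaction test, for 25 members, each with a smaller or more negative difference in elicited cells. In complex I the interaction was -1.16 for Ndufs1, -0.86 for Ndufa1, -0.84 for Ndufc1, -0.75 for Ndufb5, -0.75 for Ndufb8, -0.73 for Ndufs6, -0.61 for Ndufb10, -0.61 for Ndufs4, -0.53 for Ndufa10, -0.49 for Ndufv2 and -0.47 for Ndufa8. In complex II it was -1.40 for Sdhd, -0.93 for Sdhc, -0.74 for Sdha and -0.55 for Sdhb. The Sdhb value is that of its brighter probe, and the responses lay closer together on its other probe (0.72 in elicited and 0.92 in resident cells). In complex III with cytochrome c it was -1.03 for Cyc1, -0.86 for Uqcrc2, -0.73 for Uqcrfs1, -0.72 for Uqcrb and -0.51 for Cycs. In complex IV it was -1.10 for Cox5b, -0.64 for Cox4i1 and -0.47 for Cox5a, and in complex V -0.52 for Atp5j and -0.44 for Atp5o. The Cycs value is that of its brightest probe. Its next brightest probe gave 0.96 in elicited and 1.29 in resident cells, the same direction, and its dim probe 0.46 and -1.60, the other direction. On the mean of the 3 probes the Cycs interaction was -0.04. Of the 25 calls, 19 remained whichever array was left out (Atp5j, Cox4i1, Cycs, Ndufa10, Ndufa8 and Ndufb10 did not) and 18 under all 10 other settings (Atp5j, Atp5o, Cox4i1, Cycs, Ndufa10, Ndufa8 and Ndufv2 did not).

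An array lay far from the others of its group for 4 of the 96 sets of 4 arrays looked at, and chance alone gives about 1 such set in 20. Ndufs8 was at 2.57 on IL-4C replicate 3, against 2.68 to 2.71 on the other IL-4C arrays. Ndufb8 was at 5.61 on IL-4C replicate 2, against 5.68 on each of the others. Atp5b was at 6.70 on IL-4C replicate 2, against 6.90 to 6.92. Ndufc1 was at 4.61 on THIO+IL-4C replicate 4, against 4.51 to 4.53.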

How the results depend on the processing

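In IL-4C against PBS, 39 to 48 members were higher and none lower under every alternative run, and 39 of the 43 calls remained whichever array was left out. Atp5a1, Cox6a1, Cox7c and Ndufa2 were lost. The median was 0.89 with median centring, 0.88 with normexp and 1.17 on the authors' values. Leaving out 1 array at a time gave 39 to 46 members higher, 0 lower, medians of 0.77 to 0.86 and 5532 to 8791 genes called in all. In THIO+IL-4C against THIO, median centring gave 15 higher, array weights 39 (median 0.45) and the authors' values a median of 0.15, with 4 lower after quantile normalization, 3 on the authors' values and 2 with probes well above background on all arrays. Leaving out 1 array gave 19 to 32 higher, 1 to 3 lower, medians of 0.24 to 0.42 and 6940 to 8972 genes.

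THIO against PBS depended most on the setting, and none of its 11 calls remained under all. Members higher and lower, and their median, were 14, 6 and 0.048 after quantile normalization, 0 (1 at an unadjusted p under 0.05), 9 and -0.26 with median centring, 5 and 10 with normexp, 5, 4 and 0.026 on the authors' values, and 6, 1 and 0.057 with slide as a block (6012 genes called). They were 6, 1 and 0.042 within slide 1 (5891 genes), 4 and 29 with array weights (15068 genes), 5 and 11 with probes well above background on all arrays, and 0 and 0 with only the groups compared (3904 genes, with 2 higher and 4 lower members by limma at an unadjusted p under 0.05). Leaving out 1 array gave 2 to 4 higher, 4 to 22 lower (22 without THIO replicate 1; 4 without PBS replicate 2, THIO replicate 2 or THIO replicate 3), medians of -0.17 to -0.07 and 6227 to 13876 genes. After quantile normalization Cox6a1 (0.49), Cox6c (0.24), Cox8a (0.18), Atp5b (0.24) and Atp5h (0.11) changed sign, as did Cycs on the mean of its probes (-0.067) and Cox4i1 with array weights (-0.21).

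In THIO+IL-4C against IL-4C the median was -0.36 after quantile normalization (1 member higher), -0.89 with median centring, -0.92 on the authors' values and -0.29 with slide as a block (1 higher, 13 lower, 5436 genes). Leaving out 1 array gave 0 higher, 42 to 46 lower, medians of -0.58 to -0.55 and 13315 to 15387 genes. With slide as a block Uqcrq (0.52), Cox4i1 (0.094), Cox7b (0.11), Cox8a (0.10) and Atp5b (0.063) changed sign. Atp5pb did so with median centring (-0.31) and on the authors' values (-0.33). The interaction's median was -0.66 with median centring, -0.92 on the authors' values (45 lower), -0.38 with slide as a block and -0.36 with array weights (2 higher). Atp5b became -0.44 after quantile normalization. Leaving out 1 array gave 0 higher, 19 to 27 lower, medians of -0.51 to -0.38 and 5709 to 8153 genes. The median of all genes moved by over 0.1 with median centring in THIO+IL-4C against IL-4C (to -0.53), the interaction (-0.24), THIO against PBS (-0.23) and THIO+IL-4C against THIO (-0.068), on the authors' values in THIO+IL-4C against IL-4C (-0.43) and the interaction (-0.20), and with normexp in IL-4C against PBS (-0.17) and the interaction (0.11). The causes were not tested.

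With the replicate number as a block, 40 members were higher in IL-4C against PBS, 19 higher and 1 lower in THIO+IL-4C against THIO, 2 and 7 in THIO against PBS, 45 lower in THIO+IL-4C against IL-4C and 21 lower in the interaction. Normexp on mean signals was planned and not run, because the files used hold medians only; the version on median signals, and the lists without THIO replicate 1 or with slide as a block, were chosen after seeing the data. Fits of only the groups compared give no interaction. Slide and thioglycollate can hardly be told apart, p-values may cover technical spread only, and all members were well above background on every array.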

Other observations

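Among the subunits outside the 49, Ndufa4 was the gene that fell most in IL-4C relative to PBS. A mouse gene listed as AA467197, whose human counterpart C15ORF48 encodes a relative of NDUFA4 known to take its place in complex IV, was looked at after that value was seen. AA467197 had 6.52, 6.41, 6.45 and 6.61 on the IL-4C arrays and -3.66, -3.33 and -3.16 on the PBS arrays, and was 944-fold higher (log2 difference 9.88, SE 0.20, adjusted p = 2.55e-10), the highest log2 difference of all 20347 genes in that comparison. It had 5.87, 6.27, 6.24 and 6.90 in THIO+IL-4C and -0.04, 0.09 and 0.17 in THIO, a difference of 6.25 (SE 0.20). It was well above background on every array, including the PBS arrays.

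Ndufa4 itself had 2.61, 2.69, 2.65 and 2.76 in THIO+IL-4C and 3.43, 3.43 and 3.28 in THIO, next to the values for IL-4C and PBS given above. Its interaction was 0.90 (SE 0.17, adjusted p = 0.0018), a smaller fall in elicited than in resident cells, and that of AA467197 was -3.63 (SE 0.29), a smaller rise. THIO cells without IL-4 complex were also higher in AA467197 than PBS cells, by 3.46 (SE 0.22), and the difference between THIO+IL-4C and IL-4C cells was -0.18 (SE 0.19, adjusted p = 0.42). These are levels of RNA, and whether one protein replaced the other was not measured.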
